A study of Mus musculus with 18 samples.

Results

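The genes described are 9 erythroid differentiation genes, Gata1, Klf1, Sox6, Epor, Slc4a1, Epb42, Rhag, Tmod1 and Ermap, out of 19505 named genes measured. They were chosen by name from the erythroid lineage, by no threshold on their values but with earlier results of these data known. Shares of these genes beside those of all genes are therefore descriptions and not independent support. Each gene had 1 probe set, so no choice between probe sets was needed. Transcripts were measured on 1 array for each of 18 mice, in marrow fractions that the labels call mesenchymal (BM-MSC). The groups were 4 NeuT mice of 24 weeks (labelled as late-stage breast tumorigenesis), 4 BALB/c control mice of 24 weeks, 5 NeuT mice of 12 weeks (labelled as early-stage) and 5 BALB/c control mice of 12 weeks. The NeuT strain expresses activated rat Erbb2, the HER2/neu oncogene, from a mammary tumour virus promoter, and is labelled tumour-bearing at both ages. Transgene and tumour therefore cannot be told apart here, nor can age and the handling of each age in its own batch, if there was one. All mice were handled alike in one respect: marrow from femurs and tibias was depleted with magnetic beads of cells carrying Ter119, CD45, CD11b, CD11c, CD3, Gr1 or B220.

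Red cells form in the marrow from progenitors that express the erythropoietin receptor, pass through nucleated erythroblast stages, and end as enucleated cells filled with haemoglobin. The transcription factors GATA1 and KLF1 drive the genes of this programme, among them those for the membrane proteins and the actin-spectrin skeleton that give the red cell its shape. Ter119, the erythroid antigen in the depletion, is carried by erythroblasts and mature red cells in mice but not by the earliest erythroid progenitors. The comparisons ask how this set of genes differs between NeuT and BALB/c preparations at each age, between ages, and from array to array.

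Promoter sequences are shown as a description of these genes, and a link of their motifs to the array signals was not tested. RefSeq promoter windows on mouse build GRCm38.p6 were found for 8 of the 9 genes, and the 250 bases before the start were searched on both strands. The GATA motif, which GATA factors recognise, was searched as AGATAA and as AGATAG with either A or T as the starting letter (hence also as TGATAA and as TGATAG). It was present in 26.5% of all 32851 windows, and the CACCC-box motif (CACACCC), of the kind KLF1 binds, in 6.93%. At least 1 window of 6 of the 8 genes held the GATA motif: Klf1, Epb42, Ermap, Epor, Rhag and Sox6, the last at 1 of its 6 listed starts. Gata1, Klf1 and Sox6 had the CACCC-box motif. E-boxes (CANNTG), which TAL1 complexes recognise, were present for 5 of the 8 genes and in 66.2% of all windows. The shares of all windows compare with counts by window, of which the 8 genes had 13, 6 of them for Sox6. The GATA motif was in 6 of these 13 windows, the CACCC-box motif in 3 and E-boxes in 10. A match of letters is a description and shows no binding. In the following windows, read 5′ to 3′ on the gene's strand, capitals mark GATA and CACCC-box motifs.
Klf1 (chr8:84901732-84901981, plus strand): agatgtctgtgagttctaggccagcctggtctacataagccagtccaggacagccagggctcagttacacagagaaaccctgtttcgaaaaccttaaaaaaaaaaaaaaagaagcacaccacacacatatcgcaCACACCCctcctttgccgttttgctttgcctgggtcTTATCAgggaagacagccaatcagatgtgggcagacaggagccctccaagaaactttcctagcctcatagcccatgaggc
Gata1 (chrX:7967911-7968160, minus strand): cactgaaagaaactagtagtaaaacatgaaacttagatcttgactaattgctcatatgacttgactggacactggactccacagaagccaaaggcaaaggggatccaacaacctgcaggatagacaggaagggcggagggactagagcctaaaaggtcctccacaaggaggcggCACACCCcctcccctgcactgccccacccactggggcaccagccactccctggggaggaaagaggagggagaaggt
Epor (chr9:21963577-21963826, minus strand): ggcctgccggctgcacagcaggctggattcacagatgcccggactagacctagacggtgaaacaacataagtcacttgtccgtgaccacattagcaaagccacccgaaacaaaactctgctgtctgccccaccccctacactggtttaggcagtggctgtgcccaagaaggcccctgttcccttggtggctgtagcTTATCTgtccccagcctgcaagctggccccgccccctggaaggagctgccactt
Rhag (chr17:40810899-40811148, plus strand): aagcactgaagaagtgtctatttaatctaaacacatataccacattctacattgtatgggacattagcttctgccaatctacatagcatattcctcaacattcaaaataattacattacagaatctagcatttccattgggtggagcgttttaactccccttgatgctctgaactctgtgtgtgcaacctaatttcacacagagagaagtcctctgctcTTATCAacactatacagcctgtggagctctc
Tmod1 (chr4:46038972-46039221, plus strand): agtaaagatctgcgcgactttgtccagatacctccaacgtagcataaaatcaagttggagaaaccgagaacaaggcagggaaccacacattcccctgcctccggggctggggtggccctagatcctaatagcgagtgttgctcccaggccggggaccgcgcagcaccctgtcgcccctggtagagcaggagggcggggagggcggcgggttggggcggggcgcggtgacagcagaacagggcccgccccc
In Klf1 the CACCC-box motif began 116 bases before the start and the GATA motif 80 bases before it. In Epor and Rhag the GATA motif began 54 and 31 bases before the start, and in Gata1 the CACCC-box motif began 76 bases before it. Tmod1, which passed the test in 2 comparisons, held neither motif in this window, which had a G and C content of 64%, against a median of 52.4% over all windows.

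Median log2 signals over all genes lay between 8.43 and 8.56 on the 18 arrays, whose number limits the precision. BALB/c 24-week replicate 1 was the lowest in mean signal, at 8.45 against 8.54 to 8.58 on the others. The lowest correlations with the other arrays across genes (medians of 0.991, 0.988 and 0.987) were those of replicate 1 of NeuT at 24 weeks, replicate 3 of BALB/c at 24 weeks and replicate 4 of NeuT at 12 weeks. Of 5 stromal markers measured none exceeded the 95th percentile of the negative controls (10.46) in every array, and Lepr, the leptin receptor gene of marrow stromal cells, lay under the control median of 7.35 in every array. The highest of them, the collagen gene Col1a1, read 9.69 to 10.23.

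In these Ter119-depleted preparations all 9 genes lay above the control median in all 18 arrays. Slc4a1, Rhag, Epb42 and Sox6 exceeded 10.46 in all 18 arrays, Ermap in 17, and Klf1 and Tmod1 in 16 each, while Gata1 and Epor did so in none. Signals of different probe sets do not rank transcript levels between genes, and they do not give the share of erythroid cells. In bulk samples fewer erythroid cells and less erythroid RNA per cell cannot be told apart.

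By group mean, all 9 genes were lowest in NeuT 24-week and highest in BALB/c 12-week mice. The means of all 9 were lower in NeuT than in BALB/c mice at both ages. Of all genes 50.1% were lower at 24 weeks and 57.4% at 12 weeks. The 9 genes varied together across arrays, so they are not separate observations. Few of their differences passed the test. At 12 weeks 1 of 9 passed the test, Tmod1, which fell in NeuT mice, against 0.687% of all genes called lower and 3.84% called in either direction (limma, adjusted p under 0.05), and 4 of 9 had an unadjusted p under 0.05 against 21% of all genes. At 24 weeks none of 9 passed in limma, against 1.4% of all genes, with 2 of 9 at an unadjusted p under 0.05 against 13.2% of all genes. Among NeuT 24-week mice all 9 genes were low together on the same 2 arrays. For the genes other than Gata1 these were the lowest 2 of all 18 arrays.

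**Figure D1:**
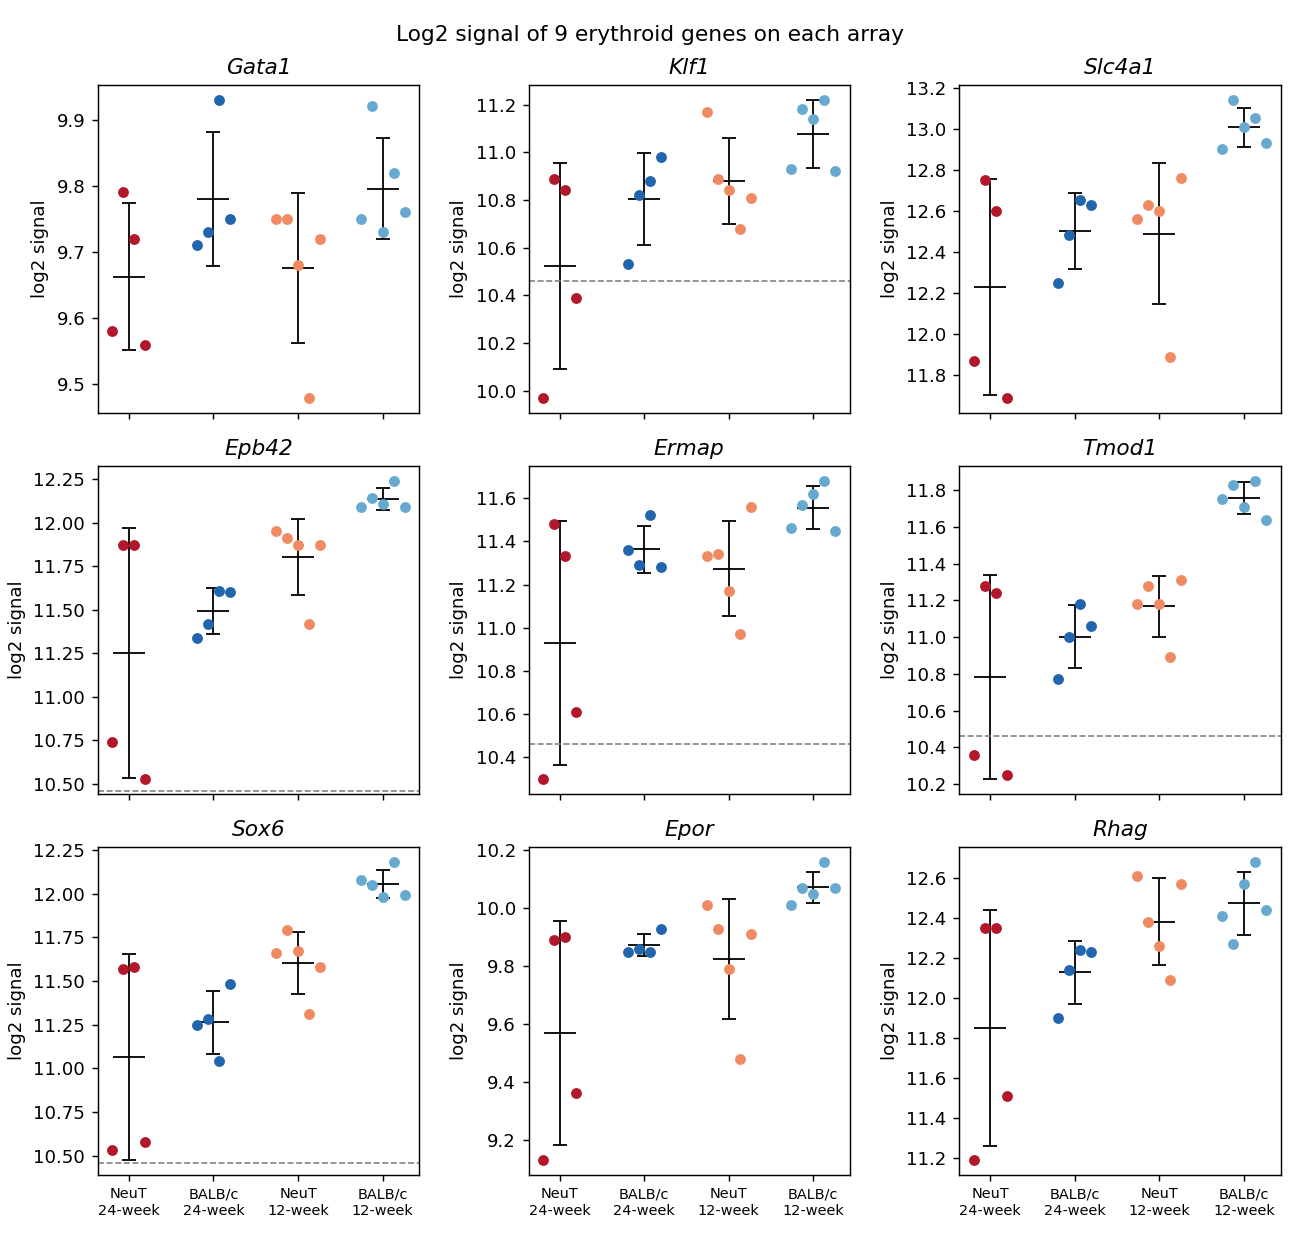
Log2 signal (vertical axes, a different range in each panel) of the 9 erythroid genes in each mouse, with NeuT 24-week, BALB/c 24-week, NeuT 12-week and BALB/c 12-week mice from left to right; points are arrays, the horizontal mark and bars are the group mean ± SD, and the dashed line is the 95th percentile of the negative controls, 10.46. For Slc4a1, Epb42, Tmod1 and Sox6 the 5 BALB/c 12-week points lie above all 13 others, and for 8 of the 9 genes NeuT 24-week replicates 1 and 4 are the lowest points.

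Among the transcription factors, Gata1, the zinc-finger factor at the head of the erythroid programme, varied least. It read 9.58, 9.79, 9.72 and 9.56 in NeuT 24-week mice, against 9.71, 9.73, 9.93 and 9.75 in BALB/c 24-week mice. At 12 weeks Gata1 read 9.75, 9.75, 9.68, 9.48 and 9.72 in NeuT mice, against 9.75, 9.92, 9.73, 9.82 and 9.76 in BALB/c mice. The groups overlapped at both ages, and replicate 4 of the 12-week NeuT mice was the lowest array. The log2 difference of NeuT minus BALB/c was -0.11 (95% interval -0.28 to 0.054) at 24 weeks and -0.12 (-0.27 to 0.03) at 12 weeks, and neither passed (adjusted p = 0.581 and 0.348). Gata1 is also expressed in megakaryocytes, mast cells and eosinophils, so its level is not specific to erythroid cells.

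Klf1, the erythroid factor that activates the adult beta-globin gene and many membrane genes, read 9.97, 10.89, 10.84 and 10.39 in NeuT 24-week mice, against 10.53, 10.82, 10.88 and 10.98 in BALB/c 24-week mice. In 12-week mice its signals were 11.17, 10.89, 10.84, 10.68 and 10.81 in NeuT, against 10.93, 11.18, 11.14, 11.22 and 10.92 in BALB/c. Replicates 1 and 4 of the 24-week NeuT mice lay below every other array. The log2 differences of Klf1 were -0.28 (-0.60 to 0.033) at 24 weeks and -0.20 (-0.48 to 0.082) at 12 weeks, and neither passed (adjusted p = 0.440 and 0.415). Without NeuT 24-week replicate 1 the 24-week difference was -0.096.

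Sox6, which promotes definitive red-cell maturation and silences embryonic globin, had a larger spread. Its signals were 10.53, 11.57, 11.58 and 10.58 in NeuT 24-week mice, against 11.25, 11.28, 11.04 and 11.48 in BALB/c 24-week mice. At 12 weeks they were 11.66, 11.79, 11.67, 11.31 and 11.58 in NeuT mice, against 12.08, 12.05, 11.98, 12.18 and 11.99 in BALB/c mice. The 12-week groups did not overlap, whereas in 24-week NeuT mice one pair of arrays lay above and one pair below all BALB/c arrays. The log2 difference was -0.20 (-0.57 to 0.17) at 24 weeks (adjusted p = 0.675) and -0.46 (-0.79 to -0.13) at 12 weeks (adjusted p = 0.103). The 24-week value was -0.018 without NeuT 24-week replicate 1 and -0.036 without replicate 4. Sox6 passed at 12 weeks when only the 2 groups compared entered the fit (adjusted p = 0.00808, with 0.00808 to 0.238 over all alternatives).

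Epor, which encodes the receptor that erythropoietin uses to keep erythroid progenitors alive, read 9.13, 9.89, 9.90 and 9.36 in NeuT 24-week mice, against 9.85, 9.86, 9.85 and 9.93 in BALB/c 24-week mice. At 12 weeks Epor read 10.01, 9.93, 9.79, 9.48 and 9.91 in NeuT mice, against 10.01, 10.07, 10.05, 10.16 and 10.07 in BALB/c mice. The BALB/c values lay close together at both ages, with the lower NeuT values outside them. Epor had log2 differences of -0.30 (-0.57 to -0.025) at 24 weeks and -0.25 (-0.49 to -0.00069) at 12 weeks, with unadjusted p = 0.0340 and 0.0494 in limma, and it did not pass at either age (adjusted p = 0.320 and 0.237). The 24-week difference was -0.15 without NeuT 24-week replicate 1.

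Of the membrane proteins, Slc4a1 encodes band 3, the anion exchanger that anchors the skeleton to the membrane. Its signals were 11.87, 12.75, 12.60 and 11.69 in NeuT 24-week mice, against 12.25, 12.48, 12.65 and 12.63 in BALB/c 24-week mice. At 12 weeks they were 12.56, 12.63, 12.60, 11.89 and 12.76 in NeuT mice, against 12.90, 13.14, 13.01, 13.05 and 12.93 in BALB/c mice. Every 12-week NeuT value lay below every 12-week BALB/c value, and replicate 4 lay far below the other NeuT values. The log2 difference was -0.28 (-0.67 to 0.11) at 24 weeks (adjusted p = 0.558) and -0.51 (-0.86 to -0.17) at 12 weeks (adjusted p = 0.0819). The 24-week value was -0.16 without NeuT 24-week replicate 1 and -0.096 without replicate 4. At 12 weeks Slc4a1 passed without NeuT 12-week replicate 5 (adjusted p = 0.0489) and in the fit of only these 2 groups (adjusted p = 0.0319), in a range of 0.0319 to 0.224 over all alternatives.

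Epb42 encodes a peripheral membrane protein that binds band 3 from inside the cell. It read 10.74, 11.87, 11.87 and 10.53 in NeuT 24-week mice, against 11.34, 11.42, 11.61 and 11.60 in BALB/c 24-week mice. The 12-week signals were 11.95, 11.91, 11.87, 11.42 and 11.87 in NeuT mice, against 12.09, 12.14, 12.11, 12.24 and 12.09 in BALB/c mice. At 24 weeks 2 NeuT arrays lay above and 2 below all BALB/c arrays, while at 12 weeks all NeuT values were the lower ones. Epb42 had log2 differences of -0.24 (-0.67 to 0.19) and -0.33 (-0.72 to 0.058), at 24 and 12 weeks (adjusted p = 0.660 and 0.316), of which the first was -0.068 without NeuT 24-week replicate 1 and 0.0025 without replicate 4. Rhag, which encodes the Rh-associated ammonium transport protein of the band 3 complex, had NeuT and BALB/c ranges of 11.19 to 12.35 and 11.90 to 12.24 at 24 weeks, and of 12.09 to 12.61 and 12.27 to 12.68 at 12 weeks. The groups overlapped at both ages, with log2 differences of -0.28 (-0.66 to 0.11) and -0.091 (-0.43 to 0.25), at 24 and 12 weeks (adjusted p = 0.547 and 0.786). Without 1 array the values of Rhag ran from -0.44 to -0.06 at 24 weeks, where NeuT 24-week replicate 1 was the one left out for the smallest, and from -0.15 to -0.018 at 12 weeks, where it was NeuT 12-week replicate 4.

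Tmod1 encodes tropomodulin 1, which caps the ends of the short actin filaments in the red-cell skeleton. It read 10.36, 11.28, 11.24 and 10.25 in NeuT 24-week mice, against 10.77, 11.00, 11.18 and 11.06 in BALB/c 24-week mice. At 12 weeks its signals were 11.18, 11.28, 11.18, 10.89 and 11.31 in NeuT mice, against 11.75, 11.83, 11.71, 11.85 and 11.64 in BALB/c mice. The 12-week groups were well apart, while the 24-week NeuT values spread to both sides of the BALB/c values. Tmod1 averaged 11.17 ± 0.17 in NeuT and 11.75 ± 0.086 in BALB/c mice of 12 weeks (SD, n = 5 each), and it fell by 0.59 on the log2 scale, with a 95% interval of -0.90 to -0.27 (limma adjusted p = 0.0331, lower in 5 of 5 NeuT mice). At 24 weeks the difference was -0.22 (-0.57 to 0.13, adjusted p = 0.618), and it was -0.077 without NeuT 24-week replicate 1 and -0.039 without replicate 4. The 12-week call ended in 6 of 10 fits that left out 1 array, without BALB/c replicate 1, 2 or 4 (adjusted p = 0.0669, 0.0917 and 0.0704) or NeuT replicate 1, 3 or 4 (adjusted p = 0.0573, 0.0613 and 0.104). Over all alternatives the difference stayed between -0.63 and -0.52, and the adjusted p ran from 0.00206 to 0.104.

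Ermap encodes an immunoglobulin-like membrane protein of erythroid cells that carries the Scianna blood group in humans. It read 10.30, 11.48, 11.33 and 10.61 in NeuT 24-week mice, against 11.36, 11.29, 11.52 and 11.28 in BALB/c 24-week mice. At 12 weeks NeuT mice ranged over 10.97 to 11.56 and BALB/c mice over 11.45 to 11.68. The groups overlapped at both ages. The log2 difference was -0.43 (-0.79 to -0.072) at 24 weeks, the largest of the 9 at that age (unadjusted p = 0.0209, adjusted p = 0.264), and -0.28 (-0.60 to 0.044) at 12 weeks (adjusted p = 0.307). Without NeuT 24-week replicate 2 the 24-week difference was -0.62 and passed (adjusted p = 0.0344), and without replicate 1 it was -0.22 (adjusted p = 0.704).

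**Figure D2:**
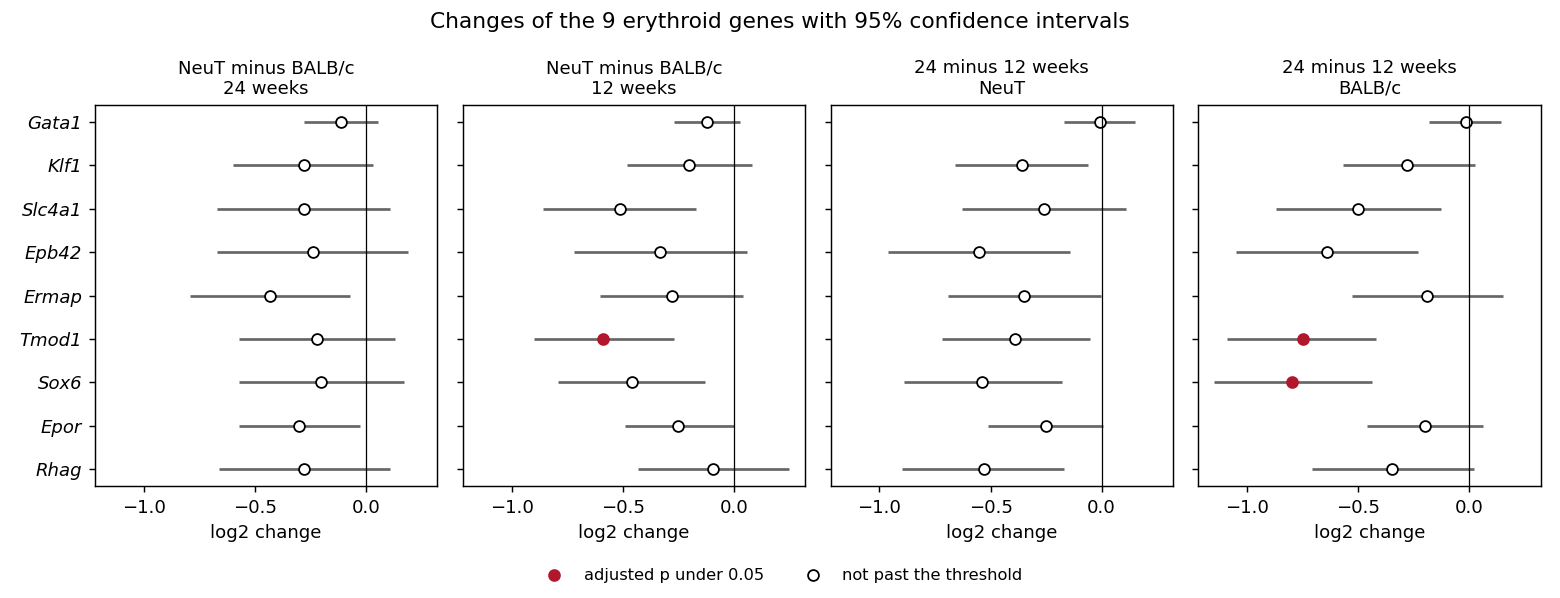
Log2 change of each erythroid gene (horizontal axis) in 4 comparisons, of NeuT with BALB/c mice at each age and of 24 with 12 weeks in each strain; points are limma estimates, bars are 95% confidence intervals, and filled points passed at an adjusted p under 0.05. All points lie left of 0, with Tmod1 filled at 12 weeks and Tmod1 and Sox6 filled for age in BALB/c mice. Of all genes, 50.1% to 57.4% lay below 0 in these 4 comparisons.

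Over the list, the median log2 difference of NeuT minus BALB/c was -0.28 at 24 weeks and -0.28 at 12 weeks, where the medians over all genes were -0.00014 and -0.025. The 24-week median was -0.086 without NeuT 24-week replicate 1, -0.096 without replicate 4 and -0.071 without the 3 arrays that correlate least, while the 12-week median stayed between -0.35 and -0.20 over all alternatives. At 24 weeks none of the 9 genes had groups that did not overlap, against 1.76% of all genes lower without overlap. In 4 of 9 genes, Slc4a1, Epb42, Tmod1 and Sox6, the 12-week groups did not overlap, all lower in NeuT mice, against 2.82% of all genes lower without overlap. The test of the difference between the 24-week and the 12-week effect called none of 9 genes in limma, against 0.0103% of all genes, and none at an unadjusted p under 0.05 against 6.5% of all genes. These differences of effects ran from -0.19 for Rhag (-0.70 to 0.33) to 0.37 for Tmod1 (-0.11 to 0.84). The intervals are wide, so a change of the NeuT effect with age is neither shown nor bounded closely.

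Age was compared within each mouse model. In BALB/c mice 2 of 9 genes fell at 24 weeks, against 0.246% of all genes called lower and 0.579% in either direction. Sox6 fell by 0.80 on the log2 scale (-1.15 to -0.44, adjusted p = 0.0359) and averaged 11.26 ± 0.18 at 24 weeks (SD, n = 4) and 12.06 ± 0.08 at 12 weeks (n = 5). Tmod1 fell by 0.75 (-1.09 to -0.42, adjusted p = 0.0361), with 11.00 ± 0.17 at 24 weeks and 11.75 ± 0.086 at 12 weeks. All 4 BALB/c mice of 24 weeks lay below all 5 of 12 weeks for both genes. The other genes did not pass, with values of -0.64 for Epb42 (adjusted p = 0.112) and -0.50 for Slc4a1 (adjusted p = 0.166), while Gata1 had a value of -0.016 (-0.18 to 0.14). Groups did not overlap in 6 of 9 genes, which also included Epor and Rhag, against 3.57% of all genes lower without overlap, and 4 of 9 had an unadjusted p under 0.05 against 15.3% of all genes. Tmod1 did not pass in 7 of 9 fits without 1 array and Sox6 did not in 6, with adjusted p up to 0.140 without BALB/c 24-week replicate 1 for Tmod1, and up to 0.116 for Sox6, also without that array. Both calls were absent without BALB/c 12-week replicate 1, 2, 4 or 5 or BALB/c 24-week replicate 1 or 2, and that of Tmod1 also without BALB/c 12-week replicate 3, although the changes stayed between -0.87 and -0.68. Over all alternatives the adjusted p ran from 0.00166 to 0.140 for Tmod1 and from 0.00166 to 0.116 for Sox6.

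In NeuT mice the 24-week means of all 9 genes lay below the 12-week means, as did those of 51.1% of all genes. None of the 9 passed in limma, against 0.0359% of all genes. At an unadjusted p under 0.05 there were 6 of 9, against 12.6% of all genes. Values were -0.55 for Epb42 (-0.96 to -0.14, adjusted p = 0.231), -0.54 for Sox6 (-0.89 to -0.18, adjusted p = 0.178) and -0.53 for Rhag (-0.90 to -0.17, adjusted p = 0.204). The groups overlapped for every gene, against 2.12% of all genes lower without overlap, and Sox6 passed only without NeuT 24-week replicate 2, at -0.70 and an adjusted p of 0.0449. The age comparison in BALB/c mice and the 12-week comparison of NeuT with BALB/c mice use the same 5 BALB/c arrays, so their results are not independent. These 5 arrays lay above all 13 other arrays for Slc4a1, Epb42, Tmod1 and Sox6, 4 of 9 genes, against 0.518% of all genes. For Tmod1 the lowest of these 5 read 11.64 and the highest of the 13 others 11.31, and for Sox6 11.98 and 11.79.

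The spread between mice was widest in the 24-week NeuT group. The median SD of the 9 genes was 0.56 in NeuT 24-week, 0.16 in BALB/c 24-week, 0.21 in NeuT 12-week and 0.086 in BALB/c 12-week mice. Over all genes the median SDs were 0.099, 0.15, 0.13 and 0.11 in the same groups. The SD ratio of NeuT over BALB/c at 24 weeks ran from 1.1 for Gata1 to 10.3 for Epor, with a median of 3.24, against a median of 0.645 over all genes. Epb42 had the largest SD in NeuT 24-week mice, 0.72, above that of 99.9% of genes, and Gata1 the smallest, 0.11, above that of 58.5%. No test of these spreads was made.

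**Figure D3:**
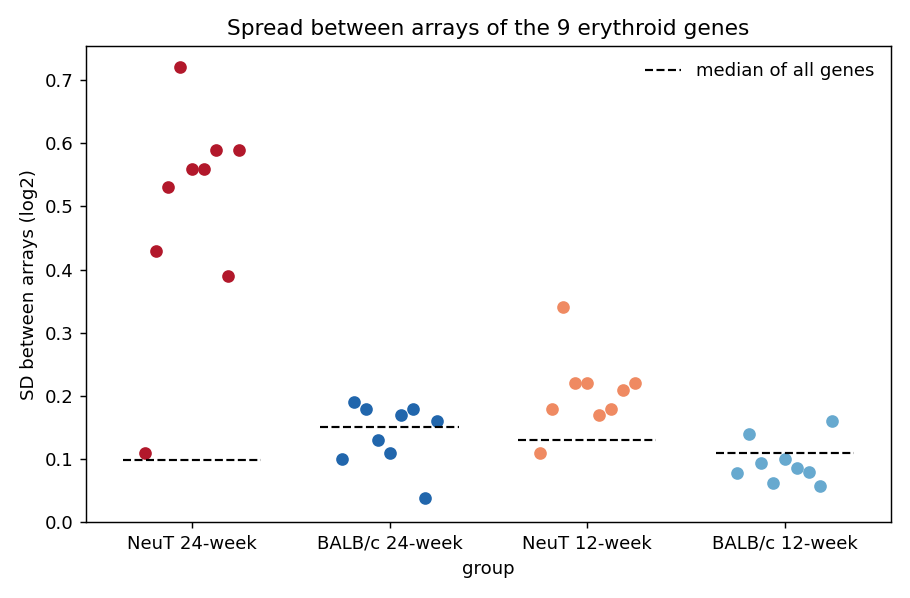
SD between arrays (vertical axis, log2) of the 9 erythroid genes in NeuT 24-week, BALB/c 24-week, NeuT 12-week and BALB/c 12-week mice; each point is a gene, in the order Gata1, Klf1, Slc4a1, Epb42, Ermap, Tmod1, Sox6, Epor and Rhag, and the dashed line is the median over all genes. In NeuT 24-week mice 8 of the 9 points lie at 0.39 to 0.72, above every other group's points.

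NeuT 24-week replicates 1 and 4 were the lowest 2 of all 18 arrays for 8 of 9 genes, and for all 9 genes both lay below every BALB/c 24-week array. Measured as the mean deviation of the 9 genes from their 18-array means, replicates 1 and 4 stood at -0.81 and -0.72, and replicates 2 and 3 at 0.10 and 0.05. BALB/c 24-week arrays stood at -0.22 to -0.00, NeuT 12-week arrays at -0.31 to 0.14 and BALB/c 12-week arrays at 0.26 to 0.43. Other transcripts moved on the same arrays. The mean of 7 B-cell markers deviated by -0.94 and -0.82 on NeuT 24-week replicates 1 and 4, and by 0.23 and -0.08 on replicates 2 and 3, and the mean of 12 neutrophil markers by 0.50 and 0.61, and by -0.12 and 0.72. On NeuT 12-week replicate 1 the B-cell markers deviated by -1.24 while the erythroid genes deviated by 0.14. Across groups, mean B-cell signals ranged over 10.14 to 11.31 in NeuT 24-week, 11.34 to 11.57 in BALB/c 24-week, 9.85 to 11.33 in NeuT 12-week and 11.23 to 11.48 in BALB/c 12-week mice. Mean neutrophil signals ranged over 11.26 to 12.09, 10.83 to 11.26, 11.01 to 12.13 and 10.82 to 11.38 in the same groups. Of the B-cell markers 2 of 7, and of the neutrophil markers 6 of 12, exceeded the 95th percentile of the controls in every array. Between NeuT and BALB/c mice 6 of 12 neutrophil markers rose at 24 weeks, against 1.18% of all genes called higher, and 5 rose at 12 weeks, against 3.15%. Of the B-cell markers, Blk fell at 24 weeks (limma adjusted p = 0.0282), against 43 of 19505 genes called lower, and none passed at 12 weeks. All 7 B-cell markers lay below 0 at both ages, with medians of -0.87 at 24 weeks and -0.53 at 12 weeks. Of all genes 50.1% and 57.4% lay below 0 at these ages. None of the 5 stromal markers passed at either age. The calls of these markers are from the main fit only, and their part in the erythroid values was not tested.

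**Figure D4:**
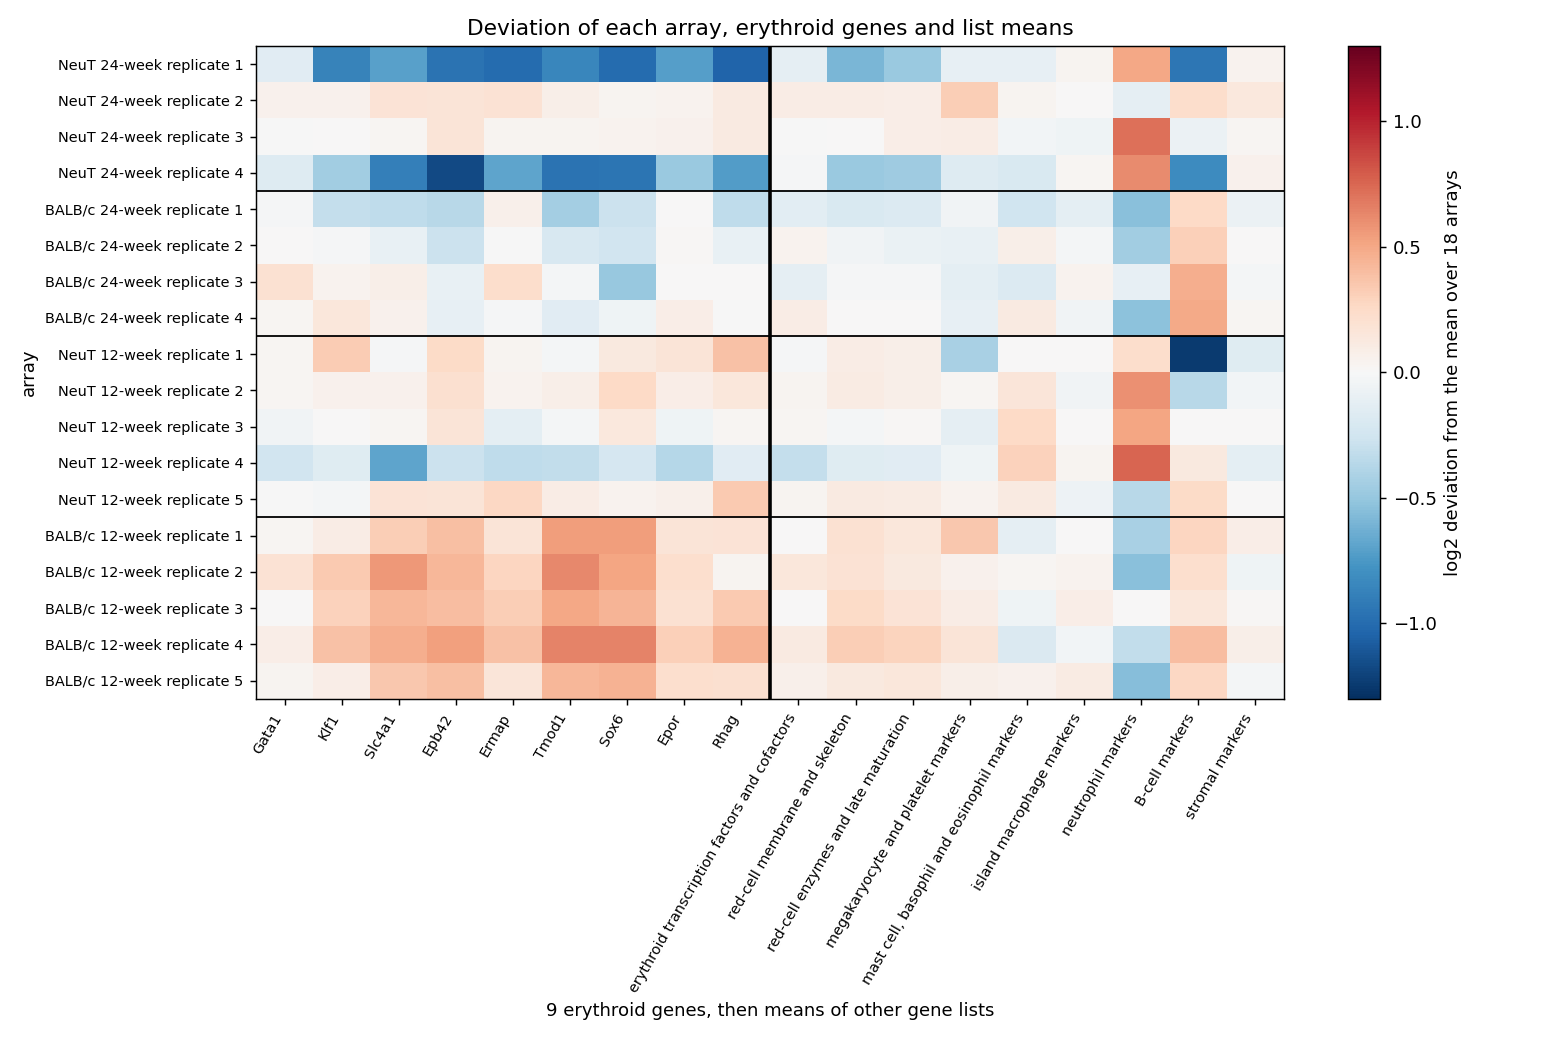
Log2 deviation (colour) of each array (rows, NeuT 24-week, BALB/c 24-week, NeuT 12-week and BALB/c 12-week from top to bottom) from the mean over 18 arrays, for the 9 erythroid genes left of the vertical line and for the means of other gene lists right of it. NeuT 24-week replicates 1 and 4 are low for the erythroid genes, for the lists of red-cell membrane and enzyme genes and for the B-cell markers, and BALB/c 12-week arrays are high for the erythroid genes.

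Deviations from the group means were correlated among the members, and less closely without the NeuT 24-week group. The part of the pair of low NeuT 24-week arrays in this was not tested. With each group's mean subtracted, Pearson's r between pairs of the 9 genes over 18 arrays ran from 0.54 to 0.97 with a median of 0.86, and Spearman's rho from 0.55 to 0.96. In a two-sided permutation test of arrays within groups, 34 of 36 pairs passed by r and 31 by rho after Benjamini-Hochberg adjustment over the 36 pairs. The closest pair was Epb42 and Tmod1 (r = 0.97, permutation p = 0.00022, adjusted p = 0.00132; rho = 0.89, permutation p = 0.00088, adjusted p = 0.00368). Slc4a1 and Tmod1 had r = 0.94 (permutation p = 2e-05, adjusted p = 0.00072) and rho = 0.96 (permutation p = 5e-05, adjusted p = 0.0018). Sox6 was in both pairs that did not pass by r, with Gata1 at r = 0.54 (permutation p = 0.0756, adjusted p = 0.0778) and with Ermap at r = 0.82 (permutation p = 0.0863, adjusted p = 0.0863). Gata1 was the least alike of the 9, with a median r of 0.71 with the others, against 0.90 for Epb42. Without the 2 arrays farthest from the median of the first gene of each pair, r ran from 0.58 to 0.96 with a median of 0.81. Without the NeuT 24-week group, a check added after seeing the data, 19 of 36 pairs passed by r and 13 by rho over the other 14 arrays. In these arrays r ran from 0.21 for Ermap and Sox6 to 0.92 for Slc4a1 and Epb42, with a median of 0.69, and without the 2 farthest arrays from -0.24 to 0.80, with a median of 0.49. Single groups held pairs that ran oppositely: in BALB/c 12-week mice replicate 2 was the lowest for Rhag (12.27) and the highest for Slc4a1 (13.14), and in BALB/c 24-week mice replicate 3 was the lowest for Sox6 (11.04) and the highest for Slc4a1 (12.65). All arrays share 1 normalisation, and pairs share genes and are not independent.

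**Figure D5:**
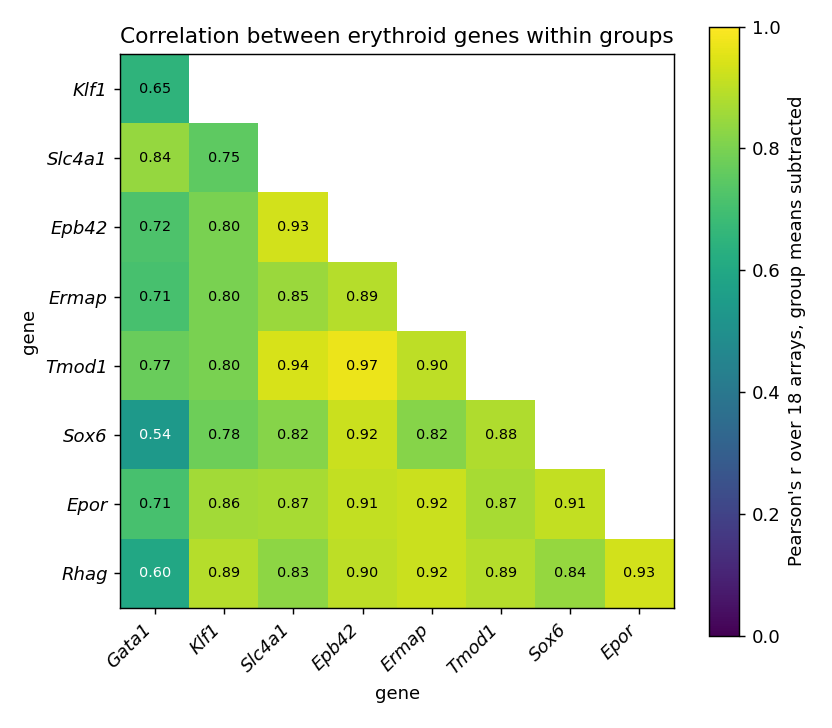
Pearson's r (colour and number) between each pair of the 9 erythroid genes over 18 arrays after subtraction of the group means, the 4 NeuT 24-week arrays included. Values run from 0.54 for Gata1 with Sox6 to 0.97 for Epb42 with Tmod1, and the Gata1 column holds the lowest values.

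The genes outside the set whose pattern was most like its mean were named by their Pearson correlation across the 18 arrays, as a description. All 18 arrays entered, the pair of low NeuT 24-week arrays included. The genes were Slc43a1, an amino acid transporter gene (r = 0.980), Urod, a haem synthesis enzyme gene (0.980), Fhdc1, a formin gene (0.979), Cdr2 (0.975), Hemgn, which encodes the haematopoietic nuclear protein hemogen (0.974), and Dmtn, which encodes the membrane skeleton protein dematin (0.973). With group means subtracted they were Urod (0.971), Rab3il1 (0.962), Fhdc1 (0.961), Art4 (0.960), which encodes the Dombrock blood group carrier in humans, Slc43a1 (0.960) and Herc1 (0.959). Urod averaged 10.69 in NeuT 24-week and 10.82 in BALB/c 24-week mice, and 10.98 in NeuT 12-week and 11.24 in BALB/c 12-week mice.

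Further erythroid genes were read from fixed lists. Among 13 transcription factors and cofactors of the erythroid programme 2 fell and none rose at 12 weeks. Of all genes 0.687% were called lower and 3.15% higher. The list as a whole lay near the other genes, with a median of -0.027 against -0.025 over all genes. Values lay below 0 for 7 of 13, against 57.4% of all genes. E2f2, a cell-cycle factor needed for terminal erythroid division, fell by 0.48 in log2 signal (SE 0.13, limma adjusted p = 0.0337) and averaged 12.19 ± 0.26 in NeuT and 12.67 ± 0.1 in BALB/c mice. Gfi1b, a repressor required for both red cells and megakaryocytes, fell by 0.42 (SE 0.11, adjusted p = 0.0415), with 11.61 ± 0.25 in NeuT and 12.02 ± 0.1 in BALB/c mice (SD, n = 5 each). At 24 weeks none of the 13 fell and Nfe2, a globin and platelet gene factor, rose by 0.41 (SE 0.08, adjusted p = 0.0204), with 10.57 ± 0.045 in NeuT and 10.16 ± 0.14 in BALB/c mice (n = 4 each). Nfe2 thus differed in direction from the 9 genes at that age, but its call is from the main fit only. The list median at 24 weeks was 0.0091, and 1.18% of all genes were called higher.

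None of the 14 measured red-cell membrane and skeleton genes passed in NeuT against BALB/c mice at either age, nor did any of 18 red-cell enzyme and maturation genes. Their medians were -0.23 and -0.10 at 24 weeks and -0.18 and -0.09 at 12 weeks. At 24 weeks 11 of 14 and 15 of 18 genes lay below 0, against 50.1% of all genes. At 12 weeks 12 of 14 and 17 of 18 did, against 57.4% of all genes. Rhd, the Rh blood group gene, had a value of -0.43 (adjusted p = 0.225) at 24 weeks, and Dmtn a value of -0.49 (adjusted p = 0.105) at 12 weeks. With age in BALB/c mice, Xk, the gene of the Kell-linked membrane protein, had a value of -0.35 (adjusted p = 0.0504). With age in NeuT mice, Kel had a value of -0.57 (adjusted p = 0.126). Of 10 genes in the globin list 3 were measured, the embryonic genes Hbb-y, Hbb-bh1 and Hba-x, none of which passed in the 5 comparisons or exceeded 10.46 in every array. The adult globin genes were not analysed here.

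Of 13 genes of erythropoietin and stem cell factor signalling none passed between NeuT and BALB/c mice at either age, with medians of -0.03 at 24 weeks and -0.025 at 12 weeks. Spi1, which encodes the myeloid factor PU.1 that opposes GATA1, had a value of 0.34 (adjusted p = 0.157) at 24 weeks, and Socs2, a cytokine signalling inhibitor, a value of -0.33 (adjusted p = 0.10) at 12 weeks. Cells that share regulators with the red-cell lineage were read beside these values. In the megakaryocyte and platelet list 2 of 11 markers exceeded 10.46 in every array, none passed at either age, and the list medians were 0.11 at 24 weeks and -0.22 at 12 weeks. With age in BALB/c mice none passed, and 11 of 11 megakaryocyte markers (median -0.25) and 18 of 18 red-cell enzyme genes (median -0.23) lay below 0. Of all genes 55.9% lay below 0 in that comparison. The mean signal of the megakaryocyte and platelet list ranged over 9.63 to 10.12 in NeuT 24-week, 9.67 to 9.75 in BALB/c 24-week, 9.38 to 9.85 in NeuT 12-week and 9.86 to 10.15 in BALB/c 12-week mice. Of 9 mast cell, basophil and eosinophil markers 2 rose at 12 weeks, against 3.15% of all genes called higher, and none passed at 24 weeks. Ms4a2 rose by 0.62 (limma adjusted p = 0.00492) and Fcer1a by 0.41 (adjusted p = 0.0113). Ms4a2 was dim, with a BALB/c 12-week mean of 7.38, close to the control median of 7.35. The mean signal of the 9 markers ranged over 11.12 to 11.36, 11.06 to 11.44, 11.32 to 11.62 and 11.12 to 11.37 in the same order of groups. The part of these cells in the signal of Gata1 was not tested.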

How the data were processed

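RNA of 18 preparations was measured on 1 array per mouse. The deposited values are log2 signals per probe set, which the authors made with RMA and the Transcriptome Analysis Console, per the submitters' processing notes. Neither their versions nor a build are given in the sources used. In the platform annotation 19572 probe sets had 1 gene symbol. For the 55 symbols with several probe sets the one with the highest mean was kept, which left 19505 genes, with no filter on dim genes. Control probe sets and transcript clusters without a single gene symbol, those with several symbols included, were left out of the tests. Replicates are different mice, numbered in accession order.

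limma 3.58.1 (R 4.3.3) fitted the 4 group means, with 14 residual and 8.68 prior degrees of freedom. Two-sided p-values were adjusted over all genes by Benjamini-Hochberg at a threshold of 0.05. The fit was tested on simulated data. Correlations among members used 100000 permutations of arrays within groups. Of 131 genes in 11 further lists 115 were measured. Named genes were the members, up to 3 genes per list and comparison past the threshold by size, or else up to 2 with the smallest p, the brightest marker of a list, and the 6 genes most alike by correlation. The members and lists were chosen with earlier results of these data known. Alternatives were other normalisations, a filter on dim genes, means of probe sets, other variance models, array weights, fewer groups, and fits without 1 or 3 arrays. Promoters came from RefSeq (GRCm38.p6). Python 3.11.15 and matplotlib 3.10.9 drew the figures.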

Additional observations from a re-analysis of the deposited data

Results flagged for a closer look

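In 5 of 36 sets of arrays (9 genes in 4 groups) a single array lay far from the others by Dixon's criterion, which chance meets in about 1 of 20 sets, and the sets of 1 array are not independent. NeuT 12-week replicate 4 was the low array for 3 genes, Gata1 at 9.48 against 9.68 to 9.75 on the others, Slc4a1 at 11.89 against 12.56 to 12.76, and Epb42 at 11.42 against 11.87 to 11.95. BALB/c 24-week replicate 3 was high for Gata1, at 9.93 against 9.71 to 9.75. For Epor BALB/c 24-week replicate 4 was high, at 9.93 against 9.85 to 9.86, in a group whose values lay within 0.08. The 24-week NeuT group met the criterion for no gene, but the criterion looks for 1 array apart from the rest. It misses a pair of arrays that is low together, as in this group, so nothing follows for that group's spread.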

How the results depend on the processing

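No paired analysis was possible because the labels give mouse IDs and no replicate numbers shared between groups. The 12-week count of called genes, 1 of 9, was 0 with trend and robust moderation and 3 with only the groups compared (Slc4a1, Sox6 and Tmod1). Without 1 array it ran from 0 to 2. The age count in BALB/c mice, 2 of 9, was 0 with trend and robust moderation and 4 (Epb42, Slc4a1, Sox6 and Tmod1) with array weights, with only the groups compared and without the 3 arrays that correlate least. Without 1 array it ran from 0 to 2. The 24-week count and the age count in NeuT mice, both 0, ran from 0 to 1 without 1 array. The count for the difference between the ages' effects was 0 in every fit. Of 19505 genes, the 12-week comparison called 749 in the main fit, 817 with trend and robust moderation and 927 with only the groups compared. The age comparison in BALB/c mice called 113, 155 and 183 genes in the same fits. It called 2375 with array weights and 1277 without the 3 arrays that correlate least. Over all genes, 274 were called between NeuT and BALB/c mice at 24 weeks in the main fit. This count was 1 with only the groups compared and 15 without the 3 arrays that correlate least. It was 8, 9 and 641 without NeuT 24-week replicate 1, 4 and 2. The 24-week calls of Nfe2, Blk, Vcam1 and the neutrophil markers were not followed through these alternatives. The count of correlated pairs, 34 of 36, was 19 without the NeuT 24-week group, an alternative chosen after seeing the data. The cause of these moves was not tested. The test of only 2 groups has fewer arrays, and leaving out an array leaves fewer still. The values that changed sign had all missed the threshold. The difference between the effects at 24 and 12 weeks became -0.016 for Gata1 with further quantile normalisation and -0.011 with cyclic loess, and without the 3 arrays 0.078 for Klf1, 0.032 for Ermap and 0.0028 for Epor. Without 1 array that difference ran from -0.041 to 0.057 for Gata1, -0.20 to 0.10 for Klf1, -0.12 to 0.33 for Epb42, -0.34 to 0.055 for Ermap, -0.16 to 0.094 for Epor and -0.35 to 0.032 for Rhag. Likewise the 24-week difference of Epb42 ran from -0.45 to 0.0025, and the age change of Gata1 from -0.057 to 0.025 in NeuT and -0.066 to 0.016 in BALB/c mice. Gata1 and Epor lay under the 95th percentile of the negative controls, which limits what their signals show.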

Other observations

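Markers of the macrophages that surround erythroblasts in marrow islands were dim, and none of 10 exceeded the 95th percentile of the negative controls in every array. The adhesion molecule gene Vcam1, also expressed by stromal cells, rose by 0.47 in NeuT mice of 24 weeks (adjusted p = 0.0233), with 10.22 ± 0.079 in NeuT and 9.75 ± 0.18 in BALB/c mice (SD, n = 4 each). The complement gene C1qc fell by 0.33 in NeuT mice of 12 weeks (adjusted p = 0.0179), with 7.38 ± 0.12 in NeuT and 7.70 ± 0.078 in BALB/c mice (n = 5 each), close to the control median of 7.35. Kitl, which encodes stem cell factor, was 0.37 lower on the log2 scale in BALB/c mice of 24 weeks than of 12 weeks (log2 change -0.37, adjusted p = 0.0482), with 7.69 ± 0.11 and 8.06 ± 0.15 (n = 4 and 5).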
